A study of Mus musculus with 12 samples.

Results

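Cpa1, Ctrb1, Ctrl and Pnliprp1 are genes of pancreatic digestive enzymes that were detected in the fetal mouse gonad, and their expression was followed here across 12 single-cell RNA sequencing libraries. They are 4 of the 32285 genes in the count tables and were picked by symbol, because they had been seen among the leading genes of supporting-lineage cells in these same libraries. Cpa1 encodes carboxypeptidase A1, which removes amino acids from the carboxyl end of peptides. Ctrb1 encodes chymotrypsinogen B1 and Ctrl a chymotrypsin-like protease, both serine proteases that are secreted as inactive precursors. Pnliprp1 encodes pancreatic lipase-related protein 1, a relative of the lipase that digests dietary fat.

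Acinar cells of the pancreas make these enzymes in bulk, store them in zymogen granules and release them into the gut, under the control of transcription factors that include PTF1A and RBPJL. The supporting lineage of the gonad descends from the coelomic epithelium and gives Sertoli cells in the testis and pre-granulosa cells in the ovary, both by way of bipotential pre-supporting cells. WT1 is a zinc finger transcription factor of these cells whose splice variants either hold (+KTS) or lack (-KTS) the amino acids lysine, threonine and serine between zinc fingers.

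Whole gonads were taken at E12 and dissociated with trypsin, and XX and XY gonads of 3 genotypes gave 6 groups of 2 libraries each. WT embryos carried both variants. Embryos homozygous for an allele that cannot make the -KTS variant formed the -KTS KO groups, and embryos homozygous for the Frasier-type allele that cannot make the +KTS variant formed the +KTS KO groups. The mutant alleles are germ-line alleles present in every cell, all mice were of a mixed B6CBAF1/JRj background, and several embryos were pooled for -KTS KO libraries. Counts from the 3′ end of transcripts cannot tell the variants apart, so total Wt1, at 159.0 to 309.1 CPM (UMIs of a gene per 1000000 UMIs) in the 12 libraries, does not check the genotype labels.

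Library totals ran from 108111924 to 147968666 UMIs (unique molecular identifiers, which count RNA molecules). After filtering, 77545 cells were kept, of which 66670 belonged to the 24 of 32 clusters of gonadal somatic cells, meaning all clusters other than germ, endothelial, immune, erythroid and mesonephric duct cells. Of 76785 distinct cell barcodes, 754 (0.982%) occurred in more than 1 library, with 3 to 33 shared by a pair of libraries. XX -KTS KO replicate 2 had 10491 barcodes, of which 6256 passed the filters. Levels are given as CPM over the summed cells of a library, and as mean ± SD over the 2 libraries of a group unless stated.

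Most of 9 defining markers of acinar cells had few UMIs, while some other acinar genes had many. Of the 9, Prss1 and Amy2a5 had no UMI in any of the 77545 kept cells. Prss3, Spink1 and Serpini2, outside the 9, had none either. A count of 0 allows a share of cells with a UMI of up to 0.00387%, counting error only. Prss2 had 31 UMIs in 5 cells, Ctrc 18 in 3, Ptf1a 16 in 13, Cel 9 in 9 and Rbpjl 31 in 30. Clps had 156 UMIs in 151 cells and Cpb1 285 in 261. Of other acinar genes, Pnlip had 60246 UMIs in 18648 cells, Cela1 2443 in 1898, Cela3b 2242 in 1701 and Cela2a 1318 in 1094. Cells with at least 2 of the 9 genes numbered 2, and 0 had 3 or more.

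Sequences around the start sites of Cpa1, Ctrb1 and Ctrl are shown because Ctrb1 and Ctrl moved together across the groups while Cpa1 took another order. In the GENCODE M21 annotation of GRCm38, Cpa1 (ENSMUSG00000054446) lies on the forward strand of chromosome 6 from 30639218 to 30645363. Ctrb1 (ENSMUSG00000031957) lies on the reverse strand of chromosome 8 from 111686519 to 111691010, and Ctrl (ENSMUSG00000031896) lies on the same strand and chromosome from 105932003 to 105933862. Pnliprp1 (ENSMUSG00000042179) lies on the forward strand of chromosome 19 from 58728887 to 58744169. Ctrb1 contains the microRNA gene Mir7076, which was not counted, and the other 3 overlap no annotated gene. The windows come from RefSeq on GRCm38.p6, where 4 of 4 genes matched, and run 5′ to 3′ on the strand of the gene, from 250 bases before the start to 50 bases after it, across the core promoter and the beginning of the first exon. Capitals mark E-boxes (CANNTG), the kind of site that basic helix-loop-helix proteins such as PTF1A bind.
Cpa1, chr6:30638968-30639267, forward strand: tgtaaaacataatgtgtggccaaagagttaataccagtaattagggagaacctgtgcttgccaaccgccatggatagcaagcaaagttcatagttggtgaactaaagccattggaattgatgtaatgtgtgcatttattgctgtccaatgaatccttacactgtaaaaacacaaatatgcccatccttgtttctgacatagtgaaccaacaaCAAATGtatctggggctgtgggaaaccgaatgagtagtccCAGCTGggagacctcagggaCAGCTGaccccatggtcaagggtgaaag
Ctrb1, chr8:111690961-111691260, reverse strand: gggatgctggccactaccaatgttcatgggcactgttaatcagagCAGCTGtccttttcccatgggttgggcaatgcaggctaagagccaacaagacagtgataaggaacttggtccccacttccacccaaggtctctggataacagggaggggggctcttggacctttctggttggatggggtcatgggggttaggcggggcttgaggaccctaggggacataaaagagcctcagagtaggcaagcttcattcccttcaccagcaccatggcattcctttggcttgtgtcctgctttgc
Ctrl, chr8:105933813-105934112, reverse strand: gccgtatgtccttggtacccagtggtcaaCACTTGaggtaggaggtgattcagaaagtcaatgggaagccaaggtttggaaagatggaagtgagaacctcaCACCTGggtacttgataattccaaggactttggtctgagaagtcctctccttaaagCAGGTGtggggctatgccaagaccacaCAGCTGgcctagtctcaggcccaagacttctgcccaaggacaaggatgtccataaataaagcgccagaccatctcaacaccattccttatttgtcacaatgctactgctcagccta

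The Cpa1 window held 3 E-boxes, starting at -38, +3 and +23 from the start site, the Ctrb1 window 1 at -205 and the Ctrl window 4 at -221, -149, -93 and -66. Pnliprp1 had 2, at -63 and -45. E-boxes were present in 72.3% of the 32851 RefSeq windows of 300 bases, so their presence does not set these genes apart. The nuclear receptor half-site AAGGTCA, searched on both strands like the motifs that follow, was in 4.72% of windows and had no match in the windows of the 4 genes. The GATA-factor letters AGATAA, in 11.2% of windows, had none either. The EGR-type zinc finger site, in 31.6%, and the TATA box TATAAA, in 13.6%, were likewise without a match. Only these exact letters were searched, and TGATAA, a near match to the GATA-factor letters, is in the Ctrb1 and Ctrl windows.

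Cpa1 was higher in both -KTS KO groups and lower in both +KTS KO groups than in WT of the same sex. Its level was 226.4 and 173.8 CPM in the XX WT libraries and 238.3 and 258.2 CPM in XY WT. It reached 500.8 and 336.6 CPM in XX -KTS KO and 795.9 and 611.6 CPM in XY -KTS KO. In +KTS KO it was 52.67 and 66.76 CPM in XX and 61.03 and 46.11 CPM in XY. Every -KTS KO library was thus above, and every +KTS KO library below, all 4 WT libraries. Ordered by mean, the groups ran from XY -KTS KO (703.8 ± 130) through XX -KTS KO (418.7 ± 116), XY WT (248.2 ± 14.1) and XX WT (200.1 ± 37.2) to XX +KTS KO (59.7 ± 9.96) and XY +KTS KO (53.6 ± 10.6), and among neighbours in this order only the +KTS KO groups overlapped.

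**Figure D1:**
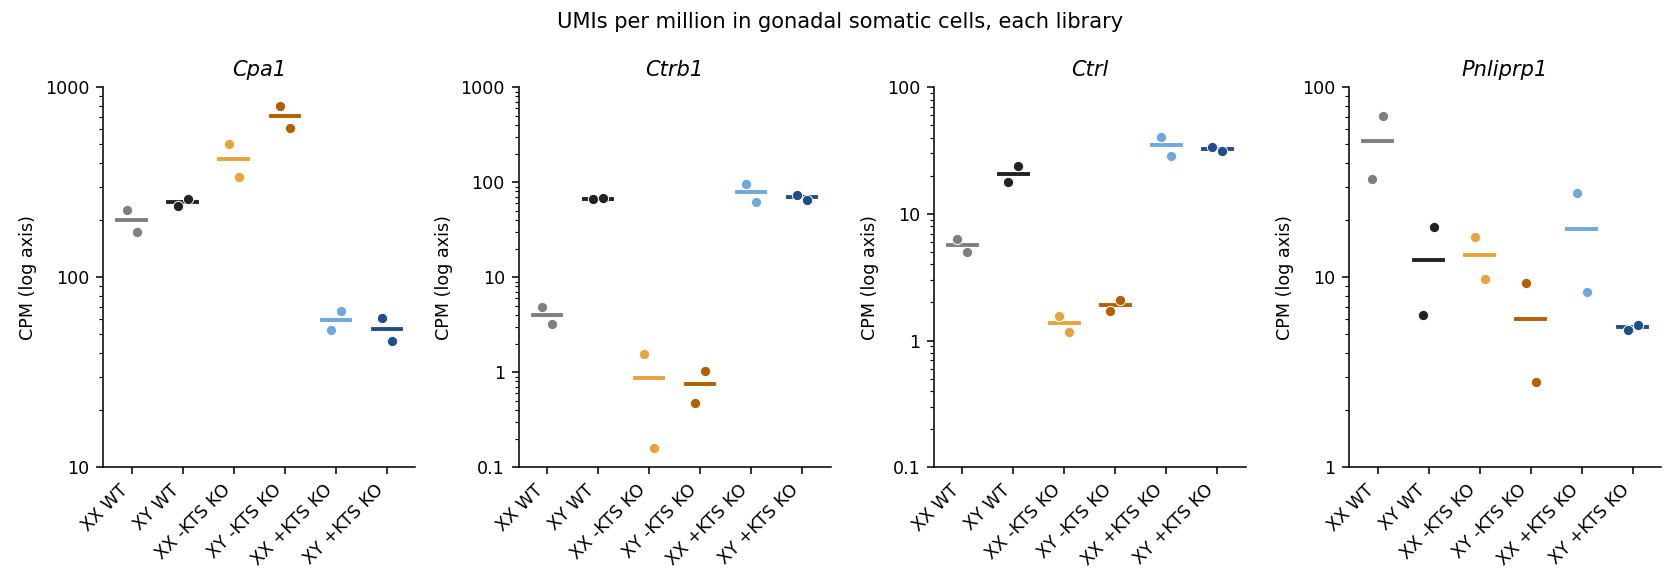
CPM of Cpa1, Ctrb1, Ctrl and Pnliprp1 in the gonadal somatic cells of each library (log axis), with points for the 2 libraries of a group and bars for their mean. Cpa1 was highest in the -KTS KO libraries (336.6 to 795.9 CPM), Ctrb1 and Ctrl were lowest there, and the XX WT libraries held the highest Pnliprp1 values (32.93 and 70.8 CPM).

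Comparisons between genotypes ask how these genes differed between mutant and WT gonads. They were made with edgeR's quasi-likelihood test on UMI sums over the gonadal somatic cells. Adjustment was over all 17717 genes tested, among which were all 4 enzyme genes. The study reported raised -KTS transcripts in +KTS KO gonads, with similar total WT1 protein in XY. Loss of +KTS and gain of -KTS thus cannot be told apart here. It also reported sex reversal of XY +KTS KO gonads at a later stage, with pre-granulosa cells and rare Sertoli cells. XY +KTS KO and XY WT thus differ in cell types as well. The genes were picked because they led clusters held mostly by single genotypes of these libraries, so the p-values give the size of a difference against the spread between libraries and are no independent evidence for it. The study describes 2 independent replicates of each genotype. Whether the 2 libraries of a group come from separate litters is not stated, so the spread may be partly technical. The -KTS KO and +KTS KO comparisons of a sex share its WT libraries. The background of calls, as a share of all genes tested, was 16.6% for XX -KTS KO against XX WT (6.91% higher and 9.73% lower) and 23.7% for XY -KTS KO against XY WT (11.2% and 12.5%). It was 5.16% for XX +KTS KO against XX WT (2.41% higher and 2.75% lower) and 13% for XY +KTS KO against XY WT (6.33% and 6.63%), and nothing is read from the counts of enzyme genes beside it. Of the 4 enzyme genes, 1 was called higher and 1 lower in XX -KTS KO, 1 higher and 2 lower in XY -KTS KO, 2 higher and 1 lower in XX +KTS KO, and 0 higher and 1 lower in XY +KTS KO.

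Cpa1 rose 2.17-fold in XX -KTS KO (log2 fold change 1.12, SE 0.24, adjusted p = 0.0110 in edgeR's quasi-likelihood test) and 2.77-fold in XY -KTS KO (1.47, SE 0.24, adjusted p = 0.00201). It fell by 1.71 on the log2 scale in XX +KTS KO (SE 0.24, adjusted p = 0.00496 in edgeR) and by 2.31 in XY +KTS KO (SE 0.25, adjusted p = 0.000757). The call in XY +KTS KO held under 11 of 11 alternative settings. Leaving out replicate 1 or replicate 2 of both compared groups ended the call in XX -KTS KO and in XX +KTS KO. Leaving out replicate 1 ended it in XY -KTS KO. In these comparisons far fewer genes of any kind were called with a replicate left out. Over the alternatives the log2 fold change was 1.03 to 1.19 in XX -KTS KO, -2.05 to -1.35 in XX +KTS KO and 1.25 to 1.74 in XY -KTS KO. The difference between XX WT and XY WT was -0.38 (SE 0.23, adjusted p = 0.334 in edgeR), and neither genotype effect was shown to differ between the sexes (XY minus XX 0.35, SE 0.33, adjusted p = 0.653 for -KTS KO and -0.59, SE 0.33, adjusted p = 0.361 for +KTS KO).

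Ctrb1 took a different order, high in XY WT and in +KTS KO of both sexes, low in XX WT and lower still in -KTS KO. Its level was 65.86 and 67.73 CPM in XY WT but 4.812 and 3.183 CPM in XX WT. In XX +KTS KO it was 95.23 and 61.88 CPM and in XY +KTS KO 72.65 and 65.7 CPM, so the +KTS KO groups overlapped each other and XY WT. In -KTS KO it was nearly absent, at 1.565 and 0.16 CPM in XX (130 and 9 UMIs) and 0.4739 and 1.02 CPM in XY (34 and 83 UMIs), below every WT library. Group means were 78.6 ± 23.6 CPM for XX +KTS KO, 69.2 ± 4.91 for XY +KTS KO, 66.8 ± 1.32 for XY WT, 3.998 ± 1.15 for XX WT, 0.863 ± 0.994 for XX -KTS KO and 0.747 ± 0.386 for XY -KTS KO.

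In XX +KTS KO, Ctrb1 rose 20.3-fold over XX WT (log2 fold change 4.34, SE 0.67, adjusted p = 0.0104 in edgeR's quasi-likelihood test). The call was lost without replicate 1 or replicate 2 of both groups, where few genes of any kind were called. Over the alternatives the log2 fold change was 4.31 to 4.63. In XY -KTS KO it fell by 6.51 on the log2 scale (SE 0.77, adjusted p = 0.000646 in edgeR), and this call held under 11 of 11 alternatives. The change in XX -KTS KO was -2.06 (SE 0.68, adjusted p = 0.0723 in edgeR) and passed the threshold without replicate 1 (-4.23, adjusted p = 0.0232). XY +KTS KO differed from XY WT by -0.04 (SE 0.58, adjusted p = 0.971 in edgeR). XX WT lay below XY WT by 4.13 on the log2 scale (SE 0.67, adjusted p = 0.00535 in edgeR). This call, too, was lost without replicate 1 or replicate 2, where far fewer genes were called. Its log2 fold change was -4.45 to -3.87 over the alternatives. In that comparison 13.8% of all genes were called (6.59% higher and 7.21% lower in XX), and of the enzyme genes Ctrb1 and Ctrl were called, both lower in XX.

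Ctrl followed the same order of groups as Ctrb1 at the top, with narrower ranges. It was 6.363 and 4.976 CPM in XX WT and 17.71 and 23.8 CPM in XY WT. It was higher in all 4 +KTS KO libraries, at 40.77 and 28.92 CPM in XX and 33.9 and 31.47 CPM in XY. In -KTS KO it was 1.577 and 1.174 CPM in XX and 1.7 and 2.09 CPM in XY, below every other library. Group means were 34.8 ± 8.38 CPM in XX +KTS KO, 32.7 ± 1.72 in XY +KTS KO, 20.8 ± 4.31 in XY WT, 5.67 ± 0.981 in XX WT, 1.90 ± 0.276 in XY -KTS KO and 1.38 ± 0.285 in XX -KTS KO, with overlap between neighbours only for the +KTS KO groups.

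Ctrl was called in 3 of the 4 genotype comparisons. It rose 6.34-fold in XX +KTS KO (log2 fold change 2.66, SE 0.24, adjusted p = 0.000832 in edgeR's quasi-likelihood test) and fell by 1.98 in XX -KTS KO (SE 0.25, adjusted p = 0.000795) and by 3.48 in XY -KTS KO (SE 0.25, adjusted p = 2.18e-05). XX WT lay below XY WT by 1.93 on the log2 scale (SE 0.23, adjusted p = 0.000830 in edgeR). Each of these 4 calls held under 11 of 11 alternatives. XY +KTS KO differed from XY WT by 0.58 (SE 0.22, adjusted p = 0.111 in edgeR), and passed the threshold over all barcodes without a cell filter (0.89, adjusted p = 0.0480).

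The difference of the genotype effects between the sexes was itself tested, and it was called for both chymotrypsin-type genes, though 3 of the 4 calls depended on the setting. For Ctrb1, the effect of -KTS KO was lower in XY than in XX by 4.45 on the log2 scale (SE 0.97, adjusted p = 0.0467 in edgeR) and that of +KTS KO by 4.38 (SE 0.87, adjusted p = 0.0301). For Ctrl the differences were -1.51 (SE 0.34, adjusted p = 0.0420 in edgeR) and -2.09 (SE 0.32, adjusted p = 0.00831). The -KTS KO difference was called for 3.16% of all genes (1.3% higher and 1.86% lower in XY) and the +KTS KO difference for 4.06% (1.87% and 2.19%). The Ctrl difference in +KTS KO held under 11 of 11 alternatives, whereas leaving out either replicate ended the other 3 calls. For the -KTS KO difference almost no gene was called with a replicate left out. Over the alternatives the differences were -5.62 to -1.81 for Ctrb1 in -KTS KO, -4.44 to -4.29 for Ctrb1 in +KTS KO and -1.56 to -1.32 for Ctrl in -KTS KO. With a replicate block the -KTS KO differences were not called (adjusted p = 0.0585 for Ctrb1 and 0.0539 for Ctrl in edgeR), and they passed the threshold under 4 and 6 of 11 alternatives, against 7 of 11 for Ctrb1 in +KTS KO. The XX and XY WT libraries that enter these differences already lay apart, as given above.

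Pnliprp1 was highest in XX WT, at 32.93 and 70.8 CPM. It was 6.309 and 18.31 CPM for XY WT, 16.32 and 9.78 CPM for XX -KTS KO, 9.297 and 2.802 CPM for XY -KTS KO, 27.62 and 8.352 CPM for XX +KTS KO and 5.306 and 5.61 CPM for XY +KTS KO. Both XX WT libraries were above every other library, and each of the 5 other groups overlapped its neighbour in the order of means. No comparison was called: the log2 fold changes were -1.92 (SE 0.78, adjusted p = 0.139 in edgeR's quasi-likelihood test) in XX -KTS KO, -1.02 (SE 0.78, adjusted p = 0.387) in XY -KTS KO, -1.46 (SE 0.77, adjusted p = 0.379) in XX +KTS KO and -1.22 (SE 0.78, adjusted p = 0.321) in XY +KTS KO. XX WT and XY WT differed by 2.03 (SE 0.79, adjusted p = 0.133 in edgeR).

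Within the gonad, most UMIs of the 4 genes were in clusters whose markers matched supporting-lineage cells best, of which the largest for Ctrb1 and Ctrl could not be named. Clusters were made without these genes and the other listed pancreatic genes among the variable genes, and the levels by cluster are a description, since the genes were picked for leading such clusters. Cluster 5, pre-supporting-like cells of the -KTS KO gonads (59.8% from XY -KTS KO), had 2073 CPM of Cpa1 and held 62.1% of all its UMIs. In pre-supporting-like cluster 16, of which 99.0% were XY WT cells, Cpa1 was 815.8 CPM, against 249.8 CPM in the XY WT Sertoli-like cluster 11. In the XX WT libraries, Cpa1 was 613.8 and 419.0 CPM in the cells of pre-supporting-like cluster 21 (62.0% XX WT), against 332.3 and 292.1 CPM in those of pre-granulosa-like cluster 2.

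Ctrb1 and Ctrl were high in other clusters. Cluster 0, which held 7661 cells almost all of +KTS KO gonads (64.4% XX +KTS KO), had 166.3 CPM of Ctrb1 and 71.9 CPM of Ctrl and held 49.2% and 48.2% of their UMIs. Its markers matched pre-supporting cells best, but its 10 leading genes, which included Pnmt and Inha beside Ctrb1 and Ctrl, were led by the fetal Leydig cell marker Cyp11a1, and it was left unnamed. Cyp11a1 was also among the leading genes of pre-supporting-like cluster 27. The study identified distinct pre-granulosa clusters in +KTS KO gonads, and its clusters were not matched to these. The XY +KTS KO libraries split between clusters: of replicate 1, 3161 cells were in pre-granulosa-like cluster 9 and 60 in cluster 0, and of replicate 2, 2637 cells were in cluster 0. The immediate-early genes Fos, Fosb and Junb were among the leading genes of cluster 9 and of cluster 17, to which replicate 1 gave 1729 of 1854 cells, and their part in the split was not tested. Small pre-supporting-like clusters were higher than cluster 0 in some libraries: in XX +KTS KO replicate 1 Ctrb1 was 442.7 CPM in cluster 27 (78 cells) and 332.5 CPM in cluster 21 (199 cells), against 187.0 CPM in cluster 0. Ctrl was 113.5 and 123.6 CPM in cluster 21 of the XX +KTS KO libraries, against 81.64 and 62.84 CPM in cluster 0. Between the XY +KTS KO libraries, Ctrb1 was 150.0 CPM in the cluster 9 cells of replicate 1 and 149.5 CPM in the cluster 0 cells of replicate 2. In XY WT, Ctrb1 was 256.7 CPM in pre-supporting-like cluster 16 and 83.5 CPM in Sertoli-like cluster 11, while the XX WT pre-granulosa-like cluster 2 had 5.80 CPM and the -KTS KO cluster 5 had 3.21 CPM.

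Pnliprp1 reached 130.1 CPM in pre-supporting-like cluster 21 and 84.5 CPM in pre-granulosa-like cluster 2, which held 33.9% of its UMIs. It was 31.3 CPM in cluster 5, 35.8 CPM in cluster 16 and 14.1 CPM in Sertoli-like cluster 11. Outside the gonadal somatic cells, the germ cells of cluster 3 had 3.98 CPM of Cpa1, 0.256 of Ctrb1, 0.131 of Ctrl and 0.274 of Pnliprp1. Germ cluster 19 was as low for Cpa1 (3.74 CPM). Germ cluster 23 had 100.2 CPM of Cpa1 at a median depth of 3579.5 UMIs a cell, and 125.5 CPM in XX -KTS KO replicate 2, which gave 687 of its 1062 cells. Erythroid cells had 153.0 CPM of Cpa1 in that library and 1.891 CPM in XX -KTS KO replicate 1. Immune cluster 28 stood out with 43.1 CPM of Ctrb1. In XY +KTS KO replicate 2 its 45 cells had 104.1 CPM of Ctrb1, with a UMI in 2.22% of them.

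**Figure D2:**
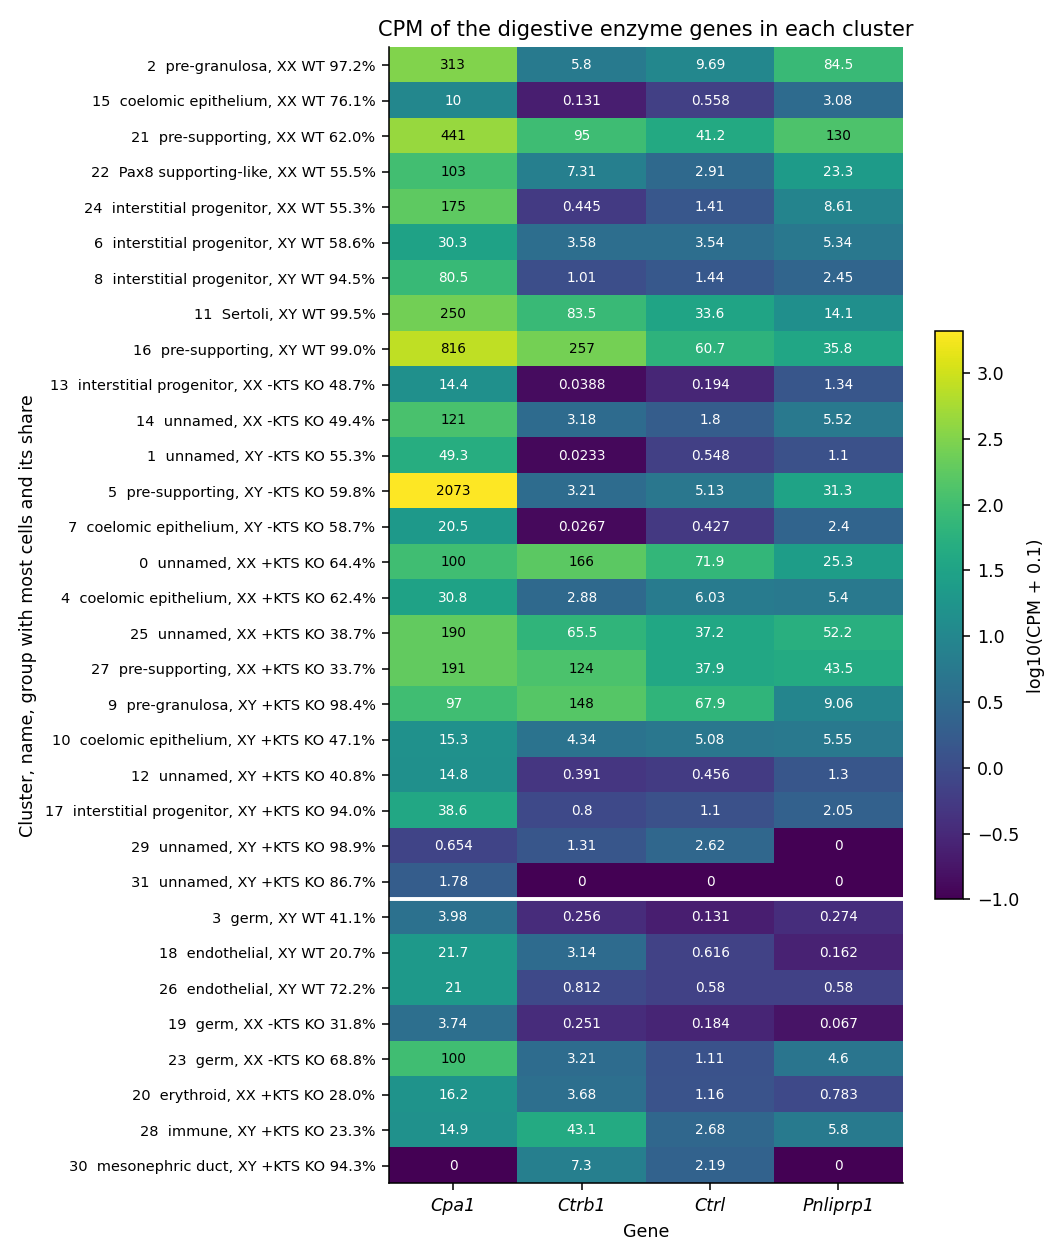
CPM of the 4 enzyme genes (columns) in each of the 32 clusters (rows, with their name, the group that gave most cells and its share), UMIs of all libraries summed, colour on a log10 scale of CPM + 0.1. Cluster 5 of the -KTS KO gonads had the highest Cpa1 level, 2073 CPM, and clusters 16, 0 and 9 the highest pooled Ctrb1 levels, 256.7, 166.3 and 148.2 CPM, though single libraries were higher in clusters 21 and 27, and the white line sets off the clusters outside the gonadal somatic cells.

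The 9 clusters whose markers matched supporting-lineage cells best (clusters 0, 2, 5, 9, 11, 16, 21, 25 and 27, of which 0 and 25 are unnamed), called supporting-lineage clusters here, held 27324 cells. They made up 19.5% to 26.9% of the gonadal somatic cells in the -KTS KO libraries and 38.2% to 55.8% in the others. Within them, Cpa1 was 337.8 ± 45.7 CPM for XX WT and 470.7 ± 71.7 for XY WT, but 1608 ± 490 for XX -KTS KO and 2378 ± 319 for XY -KTS KO. It was 108.5 ± 29.0 CPM for XX +KTS KO and 95.0 ± 10.96 for XY +KTS KO. In -KTS KO the supporting-lineage share was thus smaller and the Cpa1 level within it higher. Over these clusters the genotypes kept the order seen over all somatic cells. The -KTS KO cells here were nearly all of cluster 5, whereas WT also gave pre-granulosa-like or Sertoli-like cells. Among pre-supporting-like cells only, XX libraries had 577.2 and 365.7 CPM of Cpa1 (WT) against 1960 and 1263 (-KTS KO). The XY libraries had 1281 and 637.8 CPM (WT) against 2611 and 2153 (-KTS KO). XY WT replicate 1 thus exceeded XX -KTS KO replicate 2, but within each sex -KTS KO stayed above WT. These -KTS KO cells were nearly all of cluster 5, whereas the WT cells were nearly all of clusters 16, 21 and 27. Cluster 5 had the lowest score of the named clusters (0.537). It had 4 pre-supporting markers raised and, like cluster 16, 0 among its leading genes. The difference between -KTS KO and WT was not tested.

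Ctrb1 in these clusters was 6.91 ± 1.53 CPM for XX WT, 147.6 ± 41.3 for XY WT, 3.42 ± 3.98 for XX -KTS KO, 2.64 ± 1.59 for XY -KTS KO, 177.4 ± 31.8 for XX +KTS KO and 149.9 ± 2.69 for XY +KTS KO. Ctrl ran from 4.17 ± 1.55 CPM in XX -KTS KO to 72.8 ± 13.6 in XX +KTS KO, with 10.2 ± 1.38 in XX WT and 43.5 ± 3.37 in XY WT. For Ctrl every -KTS KO library was thus below every WT library here too, whereas for Ctrb1 XX -KTS KO (6.233 and 0.5998 CPM) overlapped XX WT (7.987 and 5.83 CPM) within these clusters. Of each library's somatic UMIs, these clusters held 75.6% to 96.5% for Cpa1, 88.9% to 100% for Ctrb1, 62.1% to 98.3% for Ctrl and 72.0% to 92.8% for Pnliprp1.

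Levels in cells picked without clustering, by a UMI of Foxl2, the transcription factor gene of pre-granulosa cells, showed the same contrast in XX. In such cells Ctrl was 10.49 and 9.288 CPM in XX WT and 69.62 and 58.17 CPM in XX +KTS KO, and Cpa1 was 359.2 and 281.1 CPM in XX WT and 73.81 and 114.0 CPM in XX +KTS KO. The 2 XX WT libraries gave 822 and 1101 such cells and the 2 XX +KTS KO libraries 977 and 373.

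Shares of cells with a UMI were compared after thinning each cell to 5000 UMIs. Cpa1 was then detected in 22.2% ± 2.08 of the gonadal somatic cells from XX WT and 25.1% ± 2.32 of those from XY WT, and in 21.2% ± 1.01 of those from XX -KTS KO and 24.8% ± 1.05 of those from XY -KTS KO, so the libraries of -KTS KO and WT overlapped in this share. The number of UMIs per positive cell did not overlap, with library means of 5.16 and 4.46 for XX WT and 5.88 and 5.17 for XY WT, against 11.2 and 7.96 for XX -KTS KO and 15.1 and 11.6 for XY -KTS KO. In +KTS KO both were lower, with 11.1% ± 2.04 of XX and 9.39% ± 0.898 of XY cells positive and 2.71 to 2.94 UMIs in each of them. Endothelial cells, taken as a background, had a Cpa1 UMI in 4.30% to 10.2% of cells by group (median depth before thinning 14438.5 to 19252 UMIs by group), with 5.10% for XX +KTS KO and 7.85% for XY +KTS KO. Whether these UMIs came from the endothelial cells themselves was not tested. In the other cell types of XY +KTS KO the share was 0.112% ± 0.159 of germ and 0.431% ± 0.610 of erythroid cells, so the somatic share of 9.39% lay near that of endothelial cells but above those.

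Ctrb1 was detected in 1.18% ± 0.322 of thinned cells from XX WT, 6.81% ± 0.0203 of those from XY WT, 0.181% ± 0.212 of those from XX -KTS KO, 0.252% ± 0.0376 of those from XY -KTS KO, 9.87% ± 2.16 of those from XX +KTS KO and 9.60% ± 0.829 of those from XY +KTS KO, against endothelial shares of 1.33% ± 1.22 for XX +KTS KO, 0.773% ± 0.307 for XY +KTS KO and 0.4% ± 0.566 for XY WT. In -KTS KO, 0 of 117 XX and 0 of 152 XY endothelial cells had a Ctrb1 UMI, which allows shares of up to 2.56% and 1.97%, so the -KTS KO shares cannot be told from background by these cells. Ctrl was found in 2.70% ± 0.634 of the thinned cells from XX WT, 7.05% ± 1.42 of those from XY WT, 0.628% ± 0.216 of those from XX -KTS KO, 0.848% ± 0.0122 of those from XY -KTS KO, 12.03% ± 2.59 of those from XX +KTS KO and 11.2% ± 0.00247 of those from XY +KTS KO, against 0.480% of endothelial cells in XY WT, and the -KTS KO shares lay below the same limits of 2.56% and 1.97%. Pnliprp1 was found in 11.8% ± 5.22 of XX WT and 1.71% to 5.87% of the cells of the other groups, against 0.209% of XX WT endothelial cells and 0 in the other groups, and its XY -KTS KO share of 1.71% lay below the limit of 1.97% there. Germ cells, which were deeper before thinning (median 30767 UMIs in XX and 42723 in XY -KTS KO), set narrower limits. Unthinned, 0.148% and 0.117% of them had Ctrl and 0.0369% and 0.117% Ctrb1. After thinning, 0 of 1114 XX and 874 XY -KTS KO cells had Ctrb1 or Ctrl, which allows up to 0.269% and 0.343%. The -KTS KO somatic shares of Ctrl lay above these limits and those of Ctrb1 below them. For Pnliprp1, 0 of the 874 XY germ cells had a UMI, and the somatic share of 1.71% lay above the limit of 0.343%. Thinning left out 440 to 1869 shallower cells per group. Median depths of the gonadal somatic cells before thinning were 11009 to 14673.5 UMIs by group, and unthinned shares were higher for every gene and group, for example 30.3% for Cpa1 and 18.55% for Pnliprp1 in XX WT.

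Thinned by cluster, Cpa1 was detected in 70.5% of the cells of cluster 5, 57.8% of cluster 16, 33.6% of cluster 21 and 33.3% of cluster 2. No cluster had Ctrb1 in most of its cells: the shares were 20.4% in cluster 0, 20.2% in cluster 9, 19.4% in cluster 16 and 12.1% in cluster 11. Ctrl was found in 24.3%, 21.4%, 19.1% and 12.2% of the same clusters. Pnliprp1 was found in 22.5% of cluster 21 and 18.0% of cluster 2.

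Detection in the same cells was counted by library. In thinned gonadal somatic cells, Ctrb1 was more frequent in cells with Ctrl than in cells without it in 11 of 11 libraries with at least 20 such cells, by a median of 4.01 times (lowest 1.78, highest 34.7). In XY WT, 27.3% and 16.9% of Ctrl-positive cells had Ctrb1, against 5.51% and 5.91% of the others, and in XX +KTS KO 29.8% and 21.8% against 8.44% and 6.81%. Cells with Cpa1 had Ctrl more often in 12 of 12 libraries (median 2.56 times) and Pnliprp1 more often in 12 of 12 (median 2.15 times). Ratios over all somatic cells do not separate genes that share clusters from genes that share cells.

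Inside single clusters the ratios were smaller but mostly above 1. In cluster 0, Ctrb1 was found in 30.1%, 24.77% and 28.18% of Ctrl-positive cells of the 3 libraries (XX +KTS KO replicates 1 and 2, XY +KTS KO replicate 2), against 18.08%, 18.41% and 17.39% of Ctrl-negative cells. Over 7 supporting-lineage clusters, the share with Ctrb1 was higher beside Ctrl in 15 of 16 pairs of cluster and library, and the share with Pnlip, the pancreatic lipase gene, was higher beside Pnliprp1 in 17 of 17. For Cpa1 the shares in cluster 0 were close. There, Ctrb1 was found in 19.87%, 17.2% and 20.27% of Cpa1-positive and 21.44%, 20.55% and 19.87% of Cpa1-negative cells, and over the 7 clusters it was higher beside Cpa1 in 15 of 19 pairs, and Ctrl in 14 of 19. Whether these counts differ from that of Ctrb1 beside Ctrl was not tested.

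**Figure D3:**
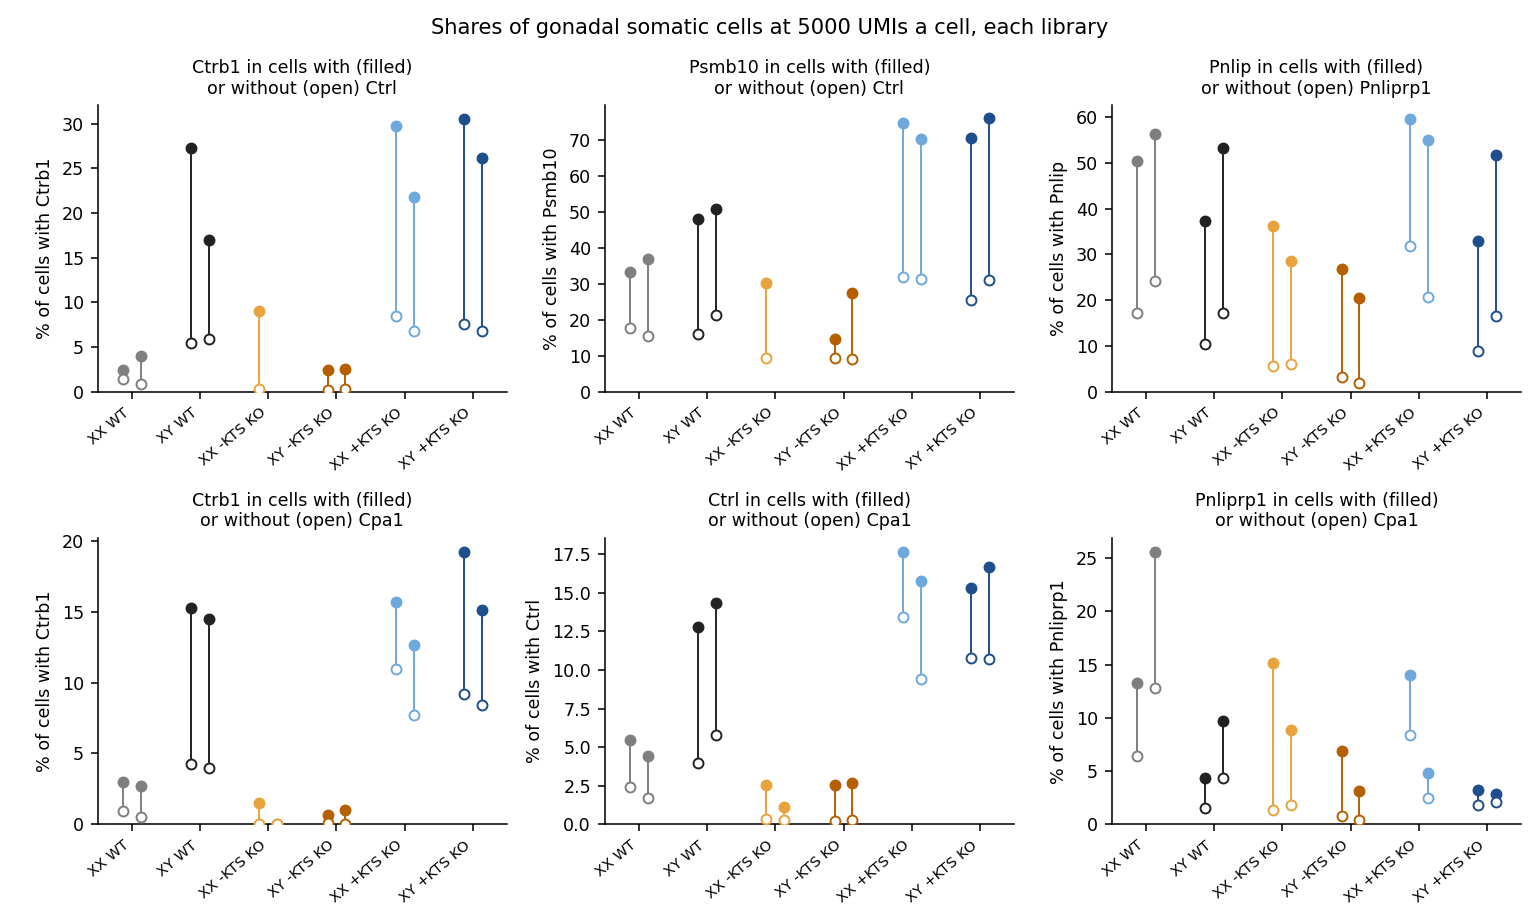
Share of thinned gonadal somatic cells with a second gene among cells with (filled) or without (open) the first, each library drawn as 1 pair joined by a line, libraries with fewer than 20 cells of the first gene left out. Ctrb1 was more frequent beside Ctrl in 11 of 11 libraries, Psmb10 beside Ctrl in 11 of 11, Pnlip beside Pnliprp1 in 12 of 12, Ctrl and Pnliprp1 beside Cpa1 in 12 of 12 each, and Ctrb1 beside Cpa1 in 11 of 12.

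Genes beside the 4 enzyme genes were examined to see whether they moved with their surroundings. Of the 2 nearest annotated genes on each side of each, 15 of 16 were tested. Ctrl lies 1872 bases downstream of Psmb10, a subunit gene of the immunoproteasome, on the same strand, and Psmb10 was called in all 4 genotype comparisons in the direction of the Ctrl fold change. Psmb10 was 41.0 and 37.9 CPM for XX WT, 45.2 and 62.6 for XY WT, 21.5 and 19.9 for XX -KTS KO, 20.4 and 21.5 for XY -KTS KO, 145.7 and 128.4 for XX +KTS KO and 104.0 and 135.5 for XY +KTS KO. Its log2 fold changes were -0.88 (SE 0.19, adjusted p = 0.0127 in edgeR), -1.39 (SE 0.19, adjusted p = 0.000879), 1.84 (SE 0.20, adjusted p = 0.00147) and 1.09 (SE 0.19, adjusted p = 0.00680) for XX -KTS KO, XY -KTS KO, XX +KTS KO and XY +KTS KO. Pskh1, a kinase gene 224 bases away on the other side and on the opposite strand, was called in none, with changes from 0.15 to 0.37. Whether transcripts that start at Psmb10 add to the Ctrl counts was not tested.

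Cpa1 belongs to a row of carboxypeptidase genes on chromosome 6. Cpa5, at 7472 bases from Cpa1, and Cpa4, at 46799 bases, both rose in -KTS KO. Cpa4, another carboxypeptidase gene, was 0.702 and 0.415 CPM for XX WT, 0.318 and 0.380 for XY WT, 6.02 and 6.53 for XX -KTS KO, 9.60 and 8.21 for XY -KTS KO, 0.0518 and 0.0479 for XX +KTS KO and 0.119 and 0.143 for XY +KTS KO. It was called in the same direction as Cpa1 in all 4 genotype comparisons, with log2 fold changes of 3.55 (SE 0.29, adjusted p = 0.000122 in edgeR), 4.64 (SE 0.30, adjusted p = 1.4e-05), -3.39 (SE 0.37, adjusted p = 0.00164) and -1.47 (SE 0.34, adjusted p = 0.0204). Cpa5, with few UMIs, was called in XX -KTS KO (2.15, SE 0.63, adjusted p = 0.0434 in edgeR) and XY -KTS KO (2.56, SE 0.66, adjusted p = 0.0197). On the other side of Cpa1, Cep41, a centrosomal protein gene, was called in none of the genotype comparisons. Gm13782, an antisense gene within Cep41, fell in XY -KTS KO (-2.75, SE 0.61, adjusted p = 0.00976 in edgeR), where Cpa1 rose, and in XY +KTS KO (-2.36, SE 0.58, adjusted p = 0.0269).

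**Figure D4:**
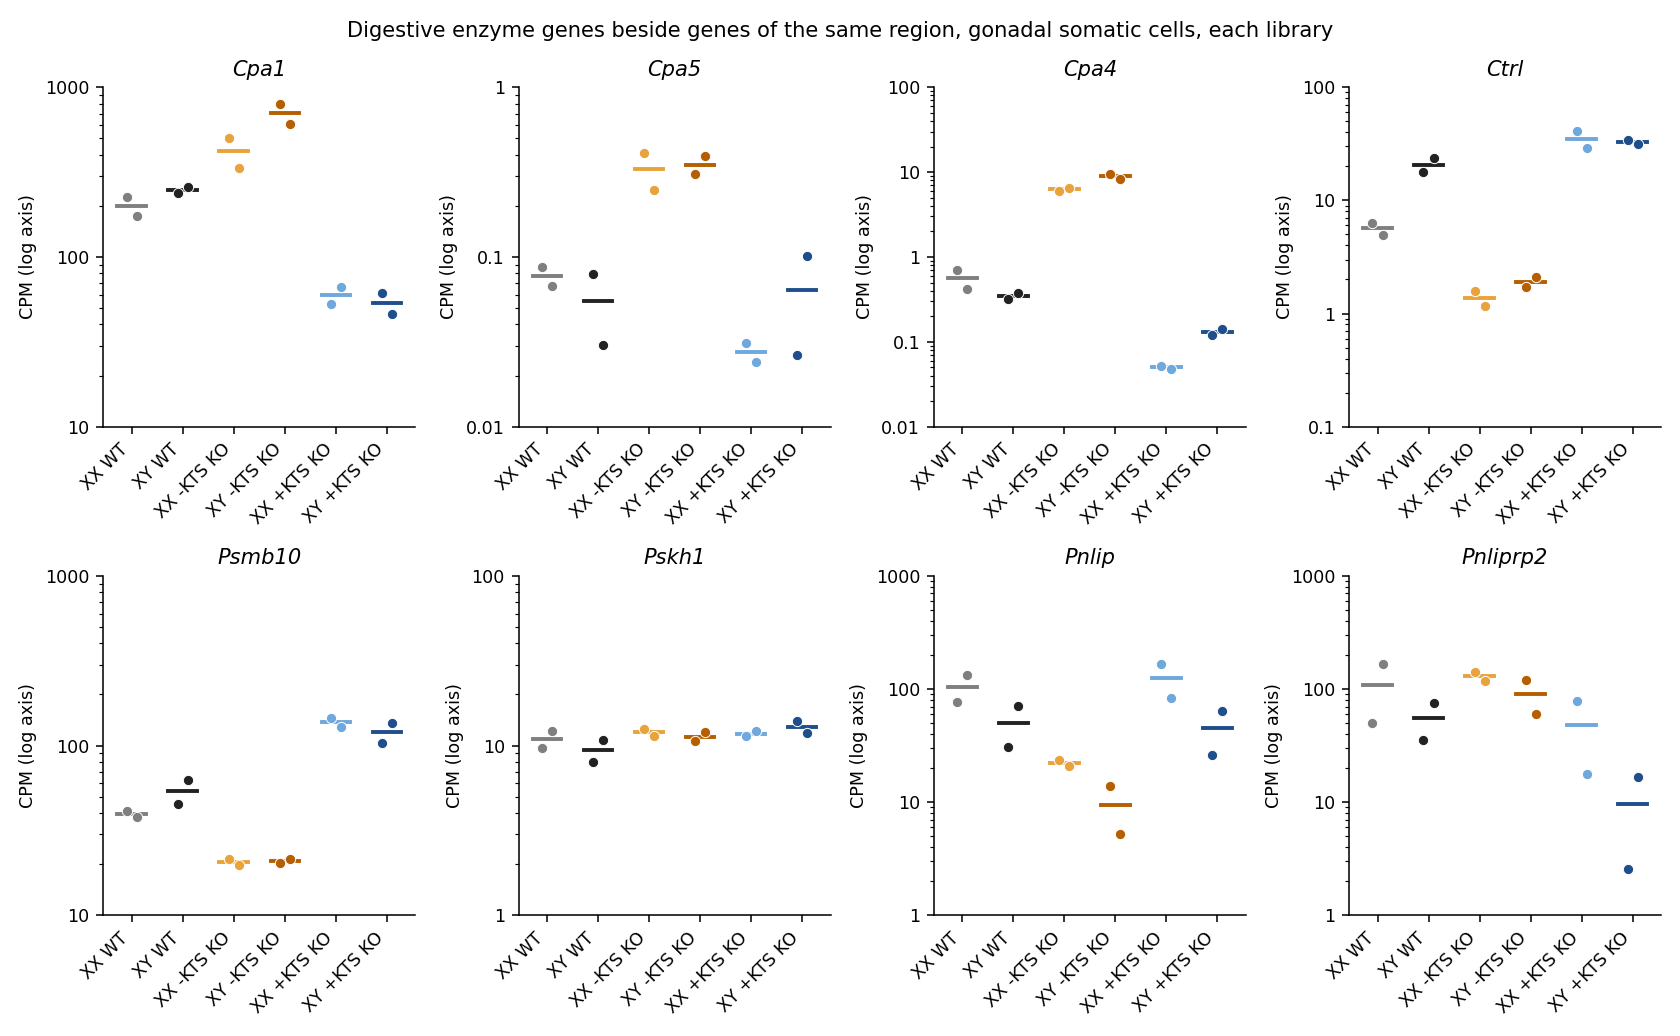
CPM in gonadal somatic cells of each library (log axis, points for libraries and bars for group means) of Cpa1, its neighbours Cpa5 and Cpa4, Ctrl, its neighbours Psmb10 and Pskh1, and Pnlip and Pnliprp2, the neighbours of Pnliprp1. Cpa4 shared the order of genotypes of Cpa1, with 6.02 to 9.60 CPM in -KTS KO, and Psmb10 was highest in the +KTS KO libraries (104.0 to 145.7 CPM), as Ctrl was.

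Pnliprp1 lies between 2 further lipase genes, Pnlip at 47098 bases and Pnliprp2 at 15549 bases. Pnlip was called in XY -KTS KO (-2.41, SE 0.67, adjusted p = 0.0323 in edgeR), where it was 13.8 and 5.24 CPM against 30.6 and 70.1 CPM in XY WT. In XX -KTS KO its level of 23.6 and 21.1 CPM was below the 77.1 and 132.1 CPM of XX WT without passing the threshold (-2.16, SE 0.66, adjusted p = 0.0581 in edgeR). 1700019N19Rik, beyond Pnliprp2, was called lower in XY -KTS KO (-2.48, SE 0.81, adjusted p = 0.0497 in edgeR) on 1 UMI in each of the 2 libraries. Pnliprp2 was called in none, and its libraries ranged from 2.55 to 165 CPM. Around Ctrb1, Zfp1, Ldhd and Cfdp1 were called in no genotype comparison, nor were Nrn1l near Ctrl and 1810035K13Rik near Pnliprp1, and Bcar1, an adaptor protein gene, rose in XX +KTS KO (0.66, SE 0.15, adjusted p = 0.0302 in edgeR).

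The genes most like each enzyme gene were taken as those with the highest Pearson r of log2(CPM + 1) over the 24 gonadal somatic clusters, among 8256 genes reaching 20 CPM in a cluster. The clusters share libraries and differ in depth, so r is a description. For Cpa1 these were Rgcc and Mettl24 (r = 0.925 each), Hpcal1 (0.916), Rnaset2b (0.912) and Bst2 (0.909). For Ctrb1 the first was Ctrl (0.979), followed by Psmb10 (0.940), Zc3hav1 (0.935), Adhfe1 and Pnmt (0.934 each). For Ctrl they included Ctrb1, Med10 (0.953), Aldh3b1 (0.947) and Psmb10 (0.941), and for Pnliprp1 they were Litaf (0.968), Gm5617 (0.948), Crygc (0.945), 6430710C18Rik (0.943) and Clec4a1 (0.942). Ctrb1 and Ctrl, which lie far apart on the same chromosome, were thus the closest pair, and Cpa1 was further from both (0.588 and 0.600) than from Pnliprp1 (0.837).

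The other pancreatic enzyme genes did not form a single pattern. Of 34 listed genes of acinar proteases, lipases, amylases, nucleases and granule proteins, 33 were in the count tables and 12 were expressed enough to be tested. Called higher and lower, respectively, were 1 and 4 for XX -KTS KO, 2 and 7 for XY -KTS KO, 2 and 2 for XX +KTS KO, and 0 and 4 for XY +KTS KO. Over all genes the shares called were 16.6%, 23.7%, 5.16% and 13%. The median log2 fold changes of the listed genes were 0.19, -1.88, 0.12 and -0.92, against 0.0077, 0.0148, -0.0017 and 0.0489 over all genes tested. Those called in XX WT against XY WT were 3, all lower in XX, beside 13.8% of all genes (7.21% lower).

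Klk1, a tissue kallikrein gene, was likewise low in -KTS KO, at 0.892 ± 0.407 CPM for XX and 0.992 ± 0.134 for XY against 17.9 ± 2.72 for XX WT and 19.1 ± 1.21 for XY WT (log2 fold changes -4.24, SE 0.50, adjusted p = 0.000758 in edgeR, and -4.30, SE 0.49, adjusted p = 0.000397). Its WT levels overlapped between the sexes, and neither +KTS KO comparison was called. Cela3b, a pancreatic elastase gene, was 2.33 ± 0.866 CPM in XX WT and 5.42 ± 1.77 in XY WT and fell in XX -KTS KO (-2.35, SE 0.57, adjusted p = 0.0200 in edgeR), XY -KTS KO (-3.17, SE 0.57, adjusted p = 0.00331) and XY +KTS KO (-2.50, SE 0.54, adjusted p = 0.0165). Rnase1, the pancreatic ribonuclease gene, was 12.5 ± 6.33 CPM in XY WT, 0.549 ± 0.0318 in XX WT and 0.182 ± 0.0415 in XY +KTS KO, and fell by 6.16 on the log2 scale in the last (SE 0.47, adjusted p = 0.000134 in edgeR), where Ctrb1 and Ctrl were not called. Rnase1 was also called lower in both -KTS KO comparisons. Cpb1, an acinar marker with few UMIs, rose in XX +KTS KO (3.64, SE 0.59, adjusted p = 0.00890 in edgeR). Zg16, a zymogen granule protein gene, rose in XX -KTS KO (3.13, SE 0.47, adjusted p = 0.00208 in edgeR) and XY -KTS KO (2.93, SE 0.47, adjusted p = 0.00185), and Cela1, an elastase gene, rose in XY -KTS KO (1.43, SE 0.35, adjusted p = 0.0146), in each case from WT levels under 5 CPM.

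**Figure D5:**
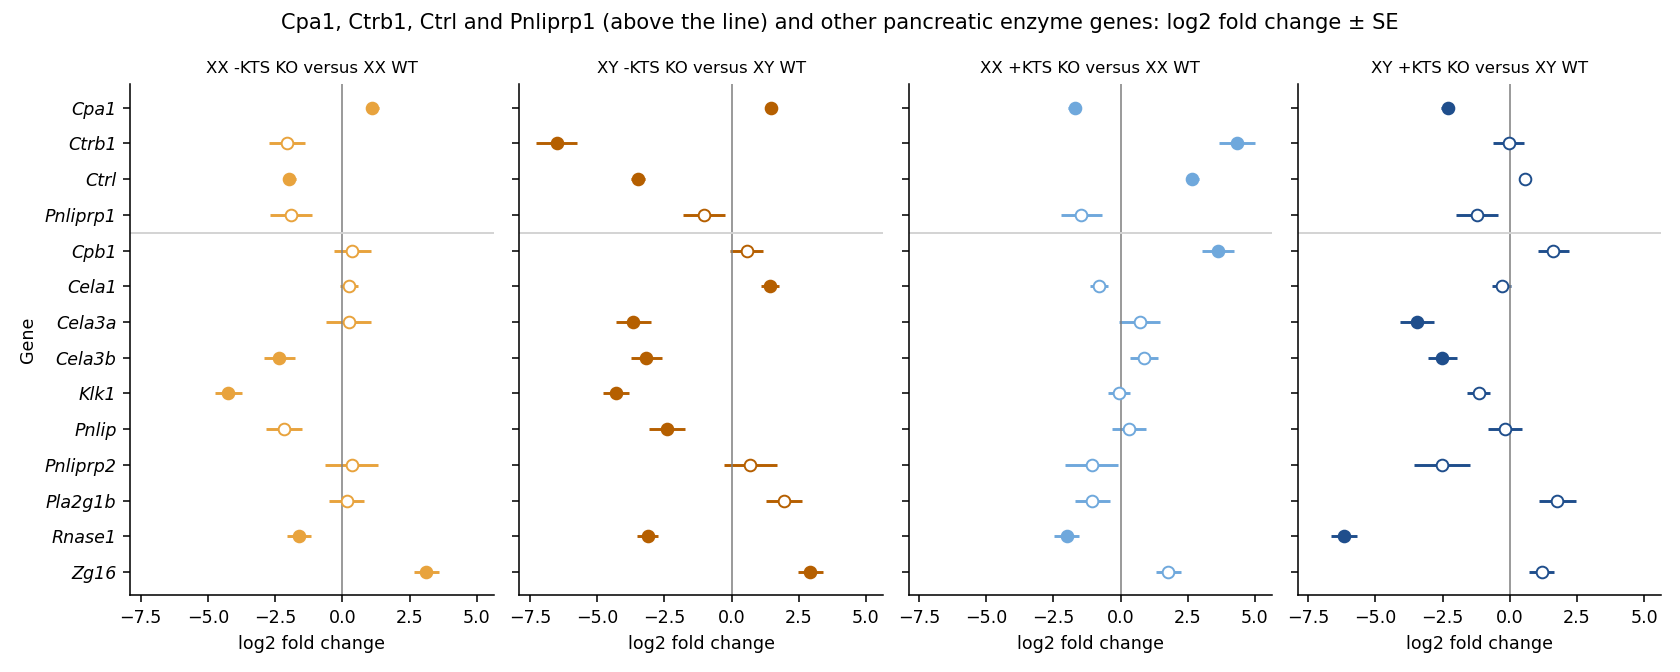
Log2 fold change (points) with its SE (lines) in the 4 genotype comparisons for Cpa1, Ctrb1, Ctrl and Pnliprp1, above the line, and other tested pancreatic enzyme genes below it, filled where the gene was called at an FDR of 0.05 in edgeR's quasi-likelihood test and open where it was not. Cpa1 lay to the right in -KTS KO (1.12 and 1.47) where Ctrl lay to the left (-1.98 and -3.48).

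Regulators of acinar genes were counted as well. Of 10 acinar and islet transcription factor genes, 6 were tested, and 0 were called higher and 1 lower in each -KTS KO comparison, 1 higher in XX +KTS KO and 2 higher in XY +KTS KO. Over all genes the shares called were 16.6%, 23.7%, 5.16% and 13%, and nothing is read from counts over 6 genes. Ptf1a had 16 UMIs in the gonadal somatic cells of all libraries and Rbpjl 26. Nr5a2, an acinar nuclear receptor gene, was at most 0.257 CPM in any group mean of gonadal somatic cells. Other genes of the list were not near 0 in these cells, with 172379 UMIs of Gata6, 88601 of Gata4, 45596 of Xbp1 and 41236 of Rbpj. Bhlha15, with 655 UMIs, was called higher in XY +KTS KO (log2 fold change 3.00, SE 0.61, adjusted p = 0.0127 in edgeR). In XX +KTS KO its change was 2.07 (SE 0.53, adjusted p = 0.0534 in edgeR). Of the 6 islet hormone genes 1 was tested and called in none of the comparisons.

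Of 8 genes of gonadal nuclear receptors and their partners, all tested, 0 were called higher and 3 lower for XX -KTS KO, 2 and 2 for XY -KTS KO, 1 and 0 for XX +KTS KO and 2 and 0 for XY +KTS KO, beside the same shares of all genes, and nothing is read from the counts. Nr5a1, which encodes the steroidogenic factor of the gonad and adrenal, was 35.5 ± 0.127 CPM for XX WT, 50.8 ± 14.7 for XY WT, 18.4 ± 4.42 for XX -KTS KO, 15.3 ± 4.47 for XY -KTS KO, 67.7 ± 6.39 for XX +KTS KO and 71.3 ± 16.8 for XY +KTS KO. It was called lower in XX -KTS KO (-0.90, SE 0.23, adjusted p = 0.0259 in edgeR) and XY -KTS KO (-1.76, SE 0.24, adjusted p = 0.000703) and higher in XX +KTS KO (0.97, SE 0.23, adjusted p = 0.0402), as Ctrl was. Over all gonadal somatic cells, of which the supporting-lineage clusters were a smaller share in -KTS KO, Nr0b1, another nuclear receptor gene, fell in XX -KTS KO (-3.27, SE 0.32, adjusted p = 0.000272 in edgeR) and XY -KTS KO (-1.76, SE 0.30, adjusted p = 0.00249). The study reported the reverse direction for Nr0b1 within XX -KTS KO pre-supporting cells, and its level within those cells was not compared here.

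Other members of the enzyme families outside the acinar lists were counted in the same way, beside 16.6%, 23.7%, 5.16% and 13% of all genes called in the same comparisons. Of 14 other carboxypeptidase genes, 12 were tested, with 3 called higher and 4 lower for XX -KTS KO, 2 and 2 for XY -KTS KO, 0 and 1 for XX +KTS KO and 0 and 1 for XY +KTS KO. Cpm, a membrane carboxypeptidase gene, had a log2 fold change of 2.85 in XX -KTS KO (adjusted p = 0.00706 in edgeR), and Cpe, of the prohormone-processing carboxypeptidase, fell by 1.41 there. Of 9 other lipase genes, 6 were tested, with 0 called higher and 1 lower for XX -KTS KO, 1 and 2 for XY -KTS KO, 0 and 0 for XX +KTS KO and 1 and 1 for XY +KTS KO.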

How the data were processed

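Gonads of 12 libraries in 6 groups were profiled by 10x 3′ single-cell RNA sequencing. The authors deposited UMI counts per gene and barcode, unnormalized, made with Cell Ranger 6.0 on mm10 per the submitters' processing notes. Reagents are given as v2 in the labels and as v3 in the study's methods. Barcodes under 1000 genes or over 10% mitochondrial UMIs were dropped (83513 of 103730 stayed). Scrublet in scanpy 1.11.5 scored doublets, its own threshold called few or none in several libraries, and the highest-scoring 0.8% per 1000 barcodes were removed (5968). Counts were normalized with sctransform 0.4.2 and clustered in Seurat 5.3.0 with 3000 variable genes, 50 components, 20 neighbours and a resolution of 0.8, leaving 23 listed pancreatic genes out of the variable genes. A cluster was called like a cell type where 3 or more markers of that type were raised, each in 20% of its cells, with scores weighed against its 10 leading genes.

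UMIs were summed per library over gonadal somatic cells (56235488 to 98040304 UMIs), scaled by TMM, filtered with filterByExpr and tested in 1 fit of 6 groups with edgeR 4.0.16's quasi-likelihood test and Benjamini-Hochberg adjustment at 0.05. The SE is the absolute log2 fold change over the square root of F. The fit was tested on simulated data. Alternatives were DESeq2 1.42.0, other size factors, no low-count filter, a replicate block, only the groups compared, other cell sets, doublets kept and each replicate left out. Leaving out clusters that match no cell type (14, 29 and 31) was added after seeing the data. For shares, cells were thinned to 5000 UMIs. Counting intervals cover counting error only.

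The 4 genes and all gene lists were chosen with earlier results of these data known, as were the thresholds for naming clusters. Named besides the 4 genes were listed genes at the threshold with at least 5 CPM in the higher group, the acinar markers, the 2 nearest genes on each side and the 5 genes most alike over clusters. Some genes that this rule names are not reported here. Cpa4 and Cpa5 are named as neighbours, and Cela1, Zg16, Cpm, Cpe, Bhlha15, Gata4, Gata6, Xbp1, Rbpj and Foxl2-positive cells were chosen after their values were seen. R was 4.3.3 and Python 3.11.15.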

Additional observations from a re-analysis of the deposited data

Results flagged for a closer look

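For Ctrb1 and Ctrl, the difference of the genotype effect between XX and XY was called by a test of the difference itself in edgeR's quasi-likelihood test over 17717 genes. The effect of -KTS KO on Ctrl was lower in XY than in XX by 1.51 on the log2 scale (XY minus XX -1.51, SE 0.34, adjusted p = 0.0420), and that on Ctrb1 was lower as well (-4.45, SE 0.97, adjusted p = 0.0467). Neither -KTS KO difference was called with a replicate block (adjusted p = 0.0539 for Ctrl and 0.0585 for Ctrb1 in edgeR), over all kept cells (0.142 and 0.0998) or over all barcodes (0.125 and 0.0656). In -KTS KO both genes were near 0 in both sexes, at 0.863 ± 0.994 and 0.747 ± 0.386 CPM for Ctrb1 and 1.38 ± 0.285 and 1.90 ± 0.276 CPM for Ctrl in XX and XY. The effect of +KTS KO differed by -2.09 for Ctrl (SE 0.32, adjusted p = 0.00831 in edgeR) and by -4.38 for Ctrb1 (SE 0.87, adjusted p = 0.0301). In +KTS KO the sexes overlapped, at 78.6 ± 23.6 and 69.2 ± 4.91 CPM for Ctrb1 and 34.8 ± 8.38 and 32.7 ± 1.72 CPM for Ctrl. XX WT and XY WT, by contrast, did not overlap for either gene. Each group had 2 libraries, and only the Ctrl difference in +KTS KO held without either replicate (highest adjusted p over the alternatives 0.0296).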

How the results depend on the processing

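Over the alternatives, 276 of the fold changes of the 4 genes kept their direction and their side of the threshold, 25 lost their call, 2 gained one and 5 changed sign, none of these 5 being called. The sign changes were for Pnliprp1 in XY -KTS KO (-2.71 without replicate 1, 0.48 without replicate 2) and its +KTS KO difference between the sexes (1.41 and -0.28), and for Ctrb1 in XY +KTS KO (0.24 over all kept cells, 0.27 over all barcodes, 0.023 without replicate 1, -0.12 without replicate 2). Without a low-count filter, the Ctrb1 differences between the sexes were not called (adjusted p = 0.140 for -KTS KO and 0.0971 for +KTS KO in edgeR). Over all kept cells the same was true (0.0998 and 0.0726), with Ctrl in -KTS KO (0.142), and over all barcodes for -KTS KO in Ctrb1 (0.0656) and Ctrl (0.125). The cause was not tested. Sums over all barcodes also put Ctrl in XY +KTS KO past the threshold, and fitting only the groups compared took away the Ctrb1 difference in -KTS KO (0.0808).

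Genes called over the genome moved by over 1.5 times as follows. Over all barcodes the counts were 1532 in XX -KTS KO, 2516 in XY -KTS KO, 470 in XX +KTS KO, 1336 between XX WT and XY WT, and 196 for the -KTS KO and 283 for the +KTS KO difference between the sexes. Over all kept cells they were 1493, 2388, 468, 1229, 178 and 271, against 2949, 4200, 914, 2446, 560 and 720 as reported. DESeq2 called 1524 in XX +KTS KO and 1362 and 1543 for the differences. Fitting only the groups compared gave 1630 in XX +KTS KO, 449 in XY +KTS KO (2296 as reported) and 879 and 306 for the differences. Without a replicate, where lone libraries are assumed to vary like the other groups, the counts ran from 360 to 561 in XX -KTS KO, 1312 to 1350 in XY -KTS KO, 10 to 17 in XX +KTS KO, 1133 to 3889 in XY +KTS KO, 265 to 840 in XX WT against XY WT, 0 to 1 for the -KTS KO difference and 355 to 861 for the +KTS KO difference. At an unadjusted p under 0.05, edgeR gave 1276 genes where it called 0.

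Libraries with the same replicate number deviated together weakly at most, which does not show whether they were processed together. Deviations from the group means correlated at -0.21 to 0.166 over 15 pairs of groups, with 4 over 0.1 and 2 under -0.1. With a replicate block, the -KTS KO differences between the sexes passed the threshold neither for Ctrb1 (-4.32, adjusted p = 0.0585 in edgeR) nor for Ctrl (-1.51, adjusted p = 0.0539), and no other call of the 4 genes changed. Of the levels by cell class, 21 moved by less than the spread between libraries and 7 by more, among them Cpa1 in pre-supporting-like cells of XY -KTS KO (2714 and 2783 CPM at resolutions of 0.4 and 1.2, 1777 in cells with a Runx1 UMI). All 24 shares were higher without thinning.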
